A study of Mus musculus with 6 samples.

Results

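The genes described here make cholesterol, control that synthesis, and move or store the sterol. They are 29 genes chosen by symbol for their role in the pathway, and all 29 had a row among the 55416 gene IDs of the count table. By role they comprise 18 enzymes of sterol synthesis, 4 genes of the SREBP2 switch, 2 genes of lipoprotein uptake and sterol transfer, and 5 genes of LXR, efflux and esterification. RNA from whole liver of male mice was sequenced as 6 libraries, 3 per genotype. KO libraries came from animals with floxed Ephb2 and the Pdgfrb-CreERT2 driver, a tamoxifen-inducible recombinase active in stellate and other mesenchymal cells. WT libraries came from animals that carried floxed Ephb2 and no Cre. Mice of both genotypes received tamoxifen for 5 days at 8 to 10 weeks of age and then a choline-deficient, amino-acid-defined high-fat diet for 8 weeks. That diet supplied 45% of its calories as fat, and held 0.1% methionine and 1% cholesterol. Every group thus ate cholesterol and received tamoxifen, and no liver on a plain diet and no Cre control without the floxed gene was analysed here. The values say how these genes stood under the diet and between the genotypes, and not what the diet did to them.

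Hepatocytes build cholesterol from acetyl-CoA through mevalonate, squalene and lanosterol. When membranes of the endoplasmic reticulum are poor in sterol, SCAP carries the transcription factor SREBP2 to the Golgi, where it is cut, and the freed part switches on the synthesis enzymes and uptake receptors. When sterol is plentiful, INSIG proteins hold SCAP and SREBP2 back, while oxysterols activate the nuclear receptor LXR, which raises pumps that send cholesterol to HDL and bile. Dietary cholesterol is known to lower the first programme in mouse liver and to raise the second.

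Total counts ran from 21160690 to 26339251 in KO libraries and from 21411113 to 23100862 in WT libraries. Levels are CPM, counts scaled to library size with TMM, a factor that corrects for differences in library composition, and 1 read was worth 0.0379 to 0.0495 CPM. The smallest count of any of the 29 genes in any library was 41, so all of them passed the filter on low counts, which left 17083 genes. Ephb2 itself stood at 6.01, 8.87 and 6.95 CPM in KO livers and at 9.46, 8.28 and 12.4 CPM in WT livers, which overlap (edgeR adjusted p = 0.850, two-sided exact permutation p = 0.2, with 0.1 the smallest that 3 against 3 allow). Recombination is limited to cells with the driver, so whole-liver Ephb2 checks the labels only weakly. Y-linked Ddx3y stood at 78.4 to 87.8 CPM in KO livers and at 75.2 to 92.8 CPM in WT livers, so each library held RNA from male tissue. Xist, normally silent in male cells, stood at 4.97, 5.12 and 2.18 CPM in KO livers and at 1.29, 1.01 and 0.765 CPM in WT livers, without overlap (edgeR adjusted p = 0.850, DESeq2 adjusted p = 0.00532). The source of the Xist reads was not tested. The labels number the animals' samples within each genotype and say nothing further about how the replicates relate, so each p-value reflects variation among these samples, which may be technical. In whole liver, fewer cells of a type and less RNA per cell cannot be told apart. The hepatocyte markers were abundant in every library. Their summed level over 7 genes was 44259 to 56302 CPM in KO livers and 50629 to 54918 CPM in WT livers, and the lowest value belonged to KO replicate 2. The sum is mostly Alb, with a mean of 39570 CPM over the 6 libraries. Alb, Apoa1 and Cps1 were lowest in KO replicate 2, while Fgb was highest there.

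Start sites of the genes were compared first, because many of the enzymes share elements there. SREBPs bind sterol regulatory elements together with NF-Y, which binds CCAAT, and SP1, which binds GGGCGG. Windows of 300 bases, from 250 before to 50 after a gene's start in RefSeq (GRCm38.p6), were held for 24 of the 29 genes, with 32 windows in all. Fdft1, Fdps, Soat2, Sqle and Stard4 had none. The letters CCAAT, on either strand, lay in a window of 14 of 15 synthesis enzymes (93.3%), of 6 of the 9 other genes (66.7%) and of 41.1% of all 27025 genes with a window. GGGCGG was found for 14 of 15 synthesis enzymes (93.3%), 6 of the 9 others (66.7%) and 38.2% of all genes. The stricter letters CACNCCAC, a core of the sterol regulatory element that does not overlap with the other pair of motifs in the windows printed here, were found for 3 of the 24 genes (12.5%), Acat2, Hmgcs1 and Insig1, against 7.12% of all genes. A match is a description of letters and not a binding site.

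The windows below are shown because Hmgcs1 and Insig1 hold the sterol regulatory letters, Idi1 and Mvd are 2 of the 3 synthesis enzymes with the widest range over libraries, and the Abcg8 window also covers the start of Abcg5. They read 5′ to 3′ on the strand of the gene, and capitals mark CACNCCAC, CCAAT and GGGCGG on either strand. Hmgcs1 lies at chr13:119690101-119690400 on the plus strand and Insig1 at chr5:28071162-28071461 on the plus strand. Idi1 lies at chr13:8885356-8885655 on the plus strand, Mvd at chr8:122443373-122443672 on the minus strand and Abcg8 at chr17:84682871-84683170 on the plus strand.
Hmgcs1: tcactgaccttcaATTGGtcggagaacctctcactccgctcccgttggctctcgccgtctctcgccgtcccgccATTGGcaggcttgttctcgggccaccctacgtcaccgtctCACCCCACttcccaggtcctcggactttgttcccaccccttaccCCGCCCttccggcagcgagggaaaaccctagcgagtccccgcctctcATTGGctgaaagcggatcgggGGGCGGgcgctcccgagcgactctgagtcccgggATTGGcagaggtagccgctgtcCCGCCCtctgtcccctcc
Insig1: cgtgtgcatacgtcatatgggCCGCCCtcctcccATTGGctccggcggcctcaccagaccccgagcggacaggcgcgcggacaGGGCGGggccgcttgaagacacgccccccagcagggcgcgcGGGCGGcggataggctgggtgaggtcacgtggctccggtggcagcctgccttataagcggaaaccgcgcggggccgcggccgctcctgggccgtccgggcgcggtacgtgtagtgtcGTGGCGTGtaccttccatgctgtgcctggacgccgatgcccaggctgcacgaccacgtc
Idi1: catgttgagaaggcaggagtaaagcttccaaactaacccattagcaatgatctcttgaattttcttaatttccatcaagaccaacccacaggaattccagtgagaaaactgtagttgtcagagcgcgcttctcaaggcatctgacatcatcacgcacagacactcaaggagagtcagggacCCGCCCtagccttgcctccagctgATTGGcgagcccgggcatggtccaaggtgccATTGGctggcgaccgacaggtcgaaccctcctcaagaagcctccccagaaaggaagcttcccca
Mvd: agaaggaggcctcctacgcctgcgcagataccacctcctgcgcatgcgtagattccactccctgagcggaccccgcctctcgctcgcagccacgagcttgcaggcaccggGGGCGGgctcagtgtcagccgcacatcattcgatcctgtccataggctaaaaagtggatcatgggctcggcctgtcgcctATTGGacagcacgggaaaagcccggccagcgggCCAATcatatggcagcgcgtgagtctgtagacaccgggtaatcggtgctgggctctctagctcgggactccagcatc
Abcg8: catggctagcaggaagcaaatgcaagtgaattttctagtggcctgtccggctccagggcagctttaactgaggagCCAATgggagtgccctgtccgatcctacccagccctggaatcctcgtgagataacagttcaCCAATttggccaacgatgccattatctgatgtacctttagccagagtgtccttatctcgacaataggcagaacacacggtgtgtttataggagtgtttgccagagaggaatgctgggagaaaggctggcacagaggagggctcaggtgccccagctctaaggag
The Hmgcs1 window held 1 match to CACNCCAC, beginning 136 bases before the start site, 4 to CCAAT and 3 to GGGCGG. The Insig1 window held 1 match to CACNCCAC, on the opposite strand and beginning 9 bases before the start, 1 to CCAAT and 3 to GGGCGG. Idi1 and Mvd each held 2 CCAAT and 1 GGGCGG matches and none to CACNCCAC. The Abcg8 window printed held 2 CCAAT matches and none of the others. Its start site lies 110 bases from that of Abcg5 on the opposite strand, and these windows share 209 bases. RefSeq gives Abcg8 another start site, further upstream within the Abcg5 gene, whose window held none of the 3 motifs.

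Levels were compared between genes per exonic length, as TPM, which divides counts by exon length and scales each library to one total, over GENCODE M21 models. The efflux and control genes stood well above most of the enzymes. The median over the 6 libraries' means was 71.0 TPM for the 5 LXR, efflux and esterification genes and 62.1 TPM for the 4 control genes. It was 11.5 TPM for the 7 mevalonate enzymes and 12.5 TPM for the 11 squalene and sterol enzymes, while the uptake and transfer genes stood at 18.4 and 29.3 TPM. Insig2, which retains SCAP and SREBP2, had the highest mean of the 29 over the 6 libraries, with 224 ± 53.7 TPM in KO livers and 246 ± 37.3 TPM in WT livers (SD, n = 3 each). Abca1, the pump that loads cholesterol onto nascent HDL, had 235 ± 13.7 TPM in KO and 213 ± 22.2 TPM in WT livers, so the order of the pair differed between the genotypes and lay within their spread. At the other end were Idi1 with 5.604 ± 3.01 TPM in KO and 5.46 ± 2.06 TPM in WT livers, and Sqle with 5.74 ± 3.77 TPM in KO and 5.80 ± 0.457 TPM in WT livers. Among the enzymes, Sc5d and Ebp stood highest. Sc5d reached 134 ± 8.71 TPM in KO and 123 ± 26.2 TPM in WT livers, and Ebp reached 103 ± 2.35 TPM in KO and 102 ± 8.20 TPM in WT livers. Values per length depend on the gene models, which sum all annotated exons.

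**Figure D1:**
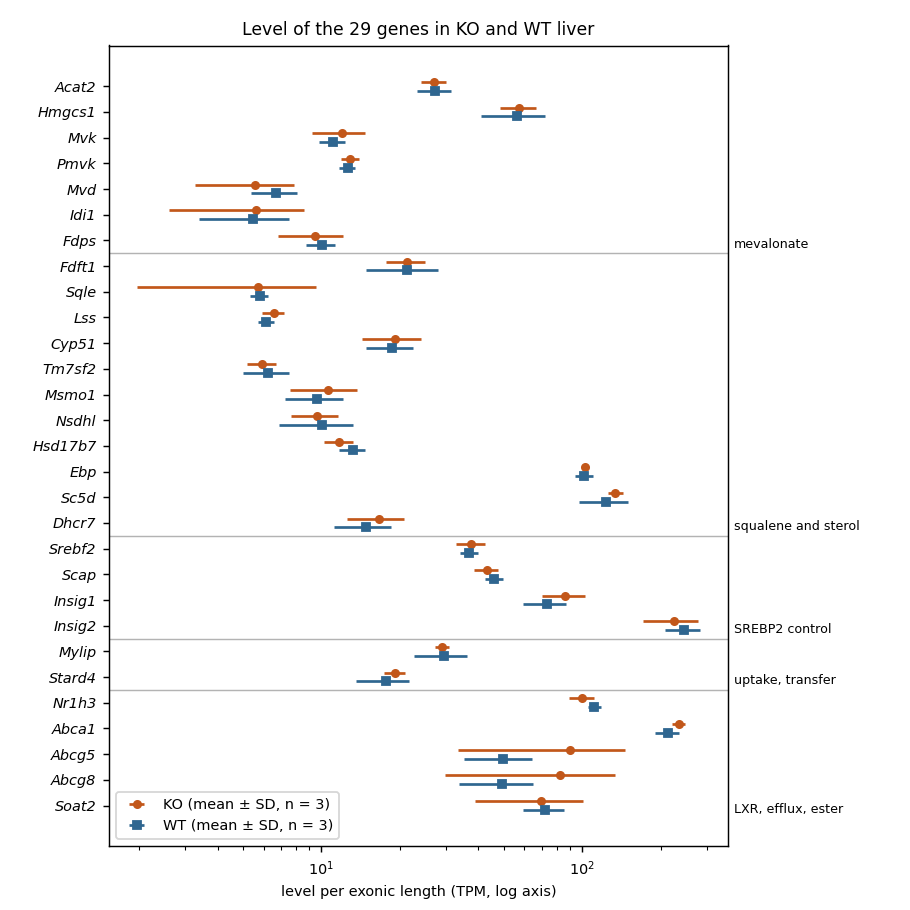
Level per exonic length of the 29 genes (TPM, log axis), as mean and SD over 3 KO libraries (circles) and 3 WT libraries (squares), grouped by role. Over all 6 libraries Idi1 averages 5.53 TPM and Sqle 5.77 TPM, Abca1 224 TPM and Insig2 235 TPM, and the KO and WT error bars of every gene overlap.

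Between the genotypes no member of the pathway was called. edgeR's quasi-likelihood test called 0 of the 29 genes after Benjamini-Hochberg adjustment over all 17083 genes, where the share called over all genes was 0% as well. At an unadjusted p under 0.05 there were 0 of 29, against 5.19% of all genes, and the CPM of KO and WT libraries overlapped for all 29, against 11.1% of genes without overlap. The median log2 fold change, KO over WT, was -0.07 over the 29 genes and -0.005 over all genes tested. Of the 29, 10 lay above 0 and 19 below it, also with DESeq2 size factors or upper-quartile scaling. With scaling by total count alone, the all-gene median lay at 0.07 and the split of the 29 was 15 and 14. The split was 15 and 14 without KO replicate 3, and 14 and 15 without WT replicate 1. It was 7 and 22 without KO replicate 2, and 6 and 23 without WT replicate 3. In the main fit 34.5% of the 29 lay above 0, against 49% of all genes tested. The log2 median was -0.06 for the mevalonate enzymes, -0.09 for the squalene and sterol enzymes, -0.13 for SREBP2 control, -0.05 for uptake and transfer, and 0.04 for LXR, efflux and esterification. The difference between branches was not tested.

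The precision of these estimates differed between genes. The standard error of a log2 fold change ran from 0.097 for Ebp to 0.44 for Abcg8, with a median of 0.19 over the 29 genes. The 95% interval lay within a 2-fold change in either direction for 24 genes and within a 1.5-fold change for 16. The 5 genes whose interval reached beyond a 2-fold change were Idi1, Mvd, Sqle, Abcg5 and Abcg8, the widest-ranging of the enzymes and both bile exporters. The smallest unadjusted p belonged to Nr1h3, Hsd17b7, Abcg5 and Scap, each with an edgeR adjusted p of 0.850.

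**Figure D2:**
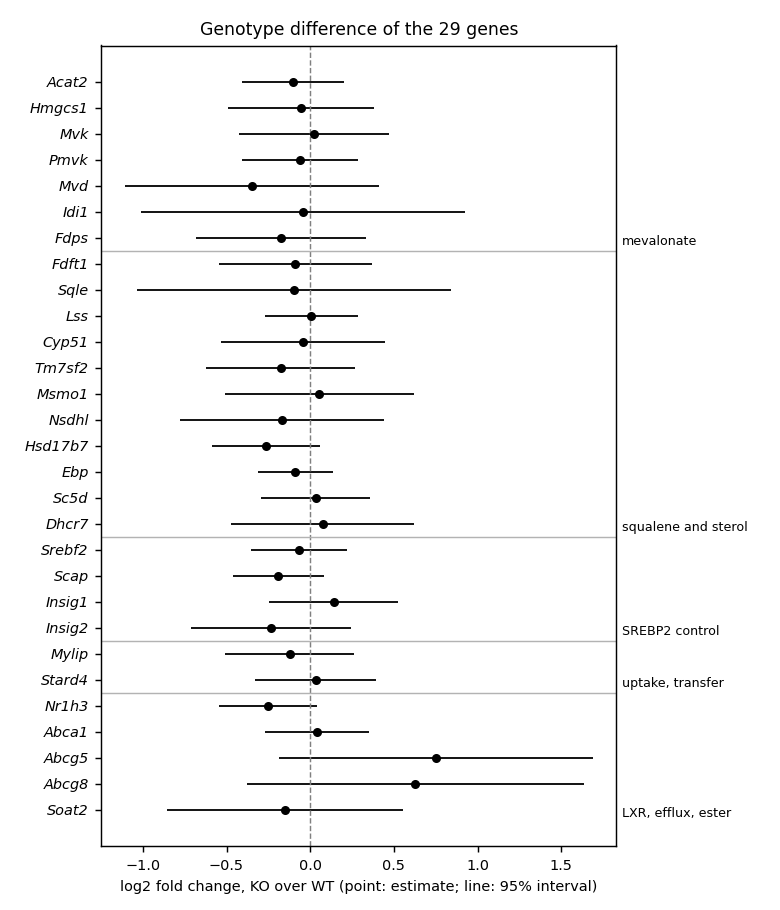
Log2 fold change of each of the 29 genes, KO over WT, with its 95% interval from edgeR's quasi-likelihood fit. Every interval includes 0, and the interval is narrowest for Ebp (-0.31 to 0.13) and widest for Abcg8 (-0.38 to 1.63).

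The mevalonate arm begins with Acat2, the cytosolic thiolase that joins acetyl-CoA units, which stood at 20.1, 24.1 and 18.8 CPM in KO livers and at 24.2, 23.8 and 19.7 CPM in WT livers. Hmgcs1, the cytosolic HMG-CoA synthase, stood at 79.9, 95.5 and 66.2 CPM in KO livers and at 87.6, 100.2 and 63.1 CPM in WT livers. Their ranges overlapped between the genotypes, with log2 fold changes of -0.10 (SE 0.13) and -0.05 (SE 0.19). Further along the arm, Mvk, Pmvk and Mvd act on mevalonate as 2 kinases and a decarboxylase. Mvd stood at 3.14, 4.59 and 1.83 CPM in KO livers and at 5.10, 3.74 and 3.40 CPM in WT livers. KO replicate 3 was the lowest of the 6 libraries and WT replicate 1 the highest, and the log2 fold change was -0.35 (SE 0.33). Idi1, the isomerase that makes the 2 building blocks of isoprenoids interconvertible, stood at 4.88, 9.82 and 3.39 CPM in KO livers and at 8.91, 5.84 and 3.97 CPM in WT livers. Its extremes were both KO libraries, replicates 2 and 3, and its log2 fold change was -0.04 (SE 0.42). Fdps, farnesyl diphosphate synthase, stood at 10.4, 16.4 and 9.72 CPM in KO livers and at 16.4, 11.8 and 13.1 CPM in WT livers. KO replicate 2 matched the highest WT library and the other KO libraries lay below all WT libraries, with a log2 fold change of -0.18 (SE 0.22). Mvk (log2 fold change 0.02) and Pmvk (-0.06) ran from 7.58 to 12.2 CPM and from 6.195 to 7.51 CPM in KO livers, and from 8.70 to 11.04 CPM and from 6.55 to 7.82 CPM in WT livers.

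The squalene arm opens with Fdft1, squalene synthase, at 32.7, 23.5 and 26.1 CPM in KO livers and 30.2, 36.0 and 21.4 CPM in WT livers. Sqle, squalene epoxidase, which adds the oxygen that later becomes the sterol hydroxyl, stood at 6.80, 17.4 and 5.17 CPM in KO livers and at 11.5, 8.86 and 11.1 CPM in WT livers. KO replicate 2 lay above every WT library and the other KO libraries lay below every WT library. The fitted log2 fold change of Sqle was -0.10 (SE 0.41, edgeR adjusted p = 0.968). That value depended on which KO library was left out. It was -0.81 (SE 0.20, unadjusted p = 0.00477, edgeR adjusted p = 0.839) without KO replicate 2, 0.20 (SE 0.36) without KO replicate 3 and 0.11 (SE 0.45) without KO replicate 1. Sqle had the largest spread of the 18 enzymes, 3.36-fold between its highest and its lowest library. Lss, lanosterol synthase, spanned 1.28-fold, with 22.3, 23.9 and 18.7 CPM in KO livers and 20.7, 20.5 and 23.5 CPM in WT livers.

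From lanosterol on, the enzymes strip methyl groups and shift or reduce double bonds. Cyp51, the lanosterol demethylase, stood at 25.4, 33.3 and 18.9 CPM in KO livers and at 30.3, 28.6 and 21.2 CPM in WT livers. Msmo1, the methylsterol oxidase, stood at 16.4, 27.1 and 16.3 CPM in KO livers and at 23.3, 20.2 and 14.2 CPM in WT livers. Both were highest in KO replicate 2, and their log2 fold changes were -0.04 (SE 0.21) and 0.05 (SE 0.25). Hsd17b7, the keto-reductase of the demethylation complex, stood at 17.6, 21.3 and 16.0 CPM in KO livers and at 24.96, 21.1 and 19.8 CPM in WT livers. It had the smallest p of the enzymes, with a log2 fold change of -0.26 (SE 0.14, 95% interval -0.59 to 0.06, unadjusted p = 0.0979), and KO replicate 2 lay above 2 WT libraries. Nsdhl, the decarboxylating dehydrogenase of the same complex, stood at 7.49, 10.5 and 7.04 CPM in KO livers and at 13.3, 7.44 and 7.56 CPM in WT livers. Its log2 fold change was -0.17 (SE 0.26), with WT replicate 1 above the other 5 libraries. Tm7sf2, a sterol reductase, ran from 6.93 to 9.02 CPM in KO livers and from 7.77 to 11.4 CPM in WT livers. Dhcr7, which carries out the last reduction to cholesterol in one of the routes, stood at 25.6, 38.8 and 24.5 CPM in KO livers and at 37.5, 22.1 and 25.1 CPM in WT livers. Its extremes were KO replicate 2 and WT replicate 2, and its log2 fold change was 0.07 (SE 0.24). Ebp, the sterol isomerase, varied least of all 29 genes, with 74.8, 72.2 and 69.4 CPM in KO livers and 85.9, 71.9 and 72.4 CPM in WT livers. Sc5d, the sterol desaturase, stood at 216, 194 and 186 CPM in KO livers and at 207, 219 and 157 CPM in WT livers, a log2 fold change of 0.03 (SE 0.14).

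Many of the enzymes lay high or low together from library to library, and both genotypes held libraries of either kind. In KO replicate 3, 18 of the 18 enzymes lay below their own mean over the 6 libraries, and in WT replicate 1, 17 of 18 lay above it. KO replicate 2 had 15 of 18 above and WT replicate 3 had 15 of 18 below. KO replicate 1 had 14 of 18 below, and WT replicate 2 was even with 9 on either side. The mean log2 deviation of the 18 enzymes was -0.12, 0.28 and -0.31 in KO livers and 0.29, 0.02 and -0.15 in WT livers. The KO libraries thus held both a high and the lowest value, and the span from the highest to the lowest library was 1.51-fold for the mean of the enzymes. All points share a library's scaling, so these deviations are not 18 separate observations. The share of all genes above or below their own mean in each library was not computed, so these counts have no baseline. In KO replicate 2, Fdft1, Ebp and Sc5d were the 3 enzymes below their own means.

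**Figure D3:**
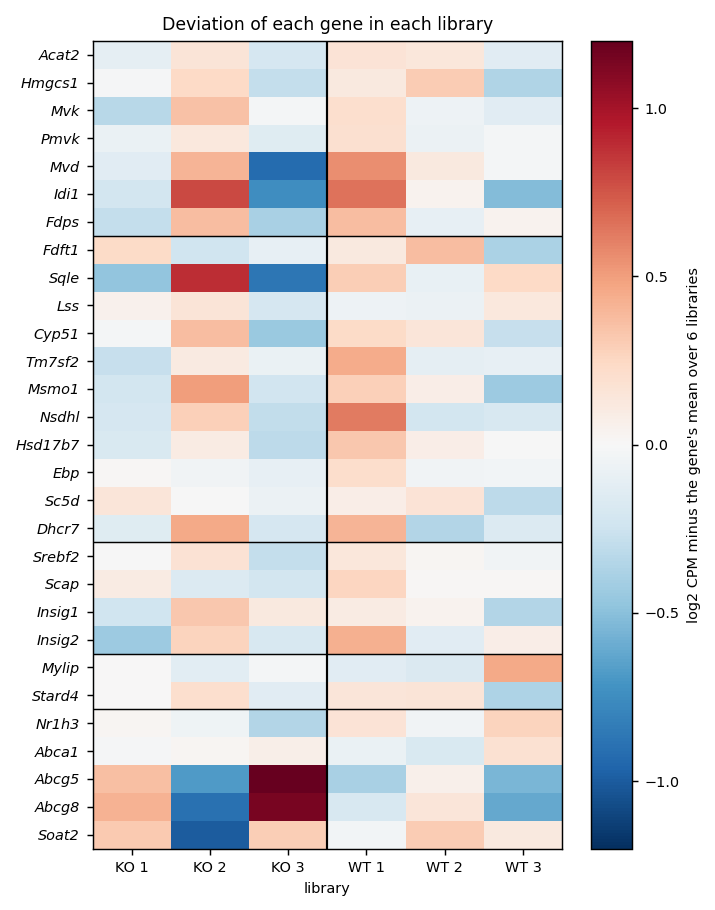
Colour shows log2 CPM of each gene in each library minus that gene's mean over the 6 libraries, with KO libraries left of the vertical line and roles separated by horizontal lines. Most enzymes are red in KO 2 and WT 1 and blue in KO 3, and Abcg5, Abcg8 and Soat2 show the opposite colours in KO 2.

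None of the 4 genes of the SREBP2 switch was called. Srebf2, which encodes the factor, stood at 83.8, 94.6 and 68.8 CPM in KO livers and at 92.3, 85.3 and 81.6 CPM in WT livers, a log2 fold change of -0.07 (SE 0.12). Scap, its escort, stood at 111, 92.6 and 89.2 CPM in KO livers and at 124, 105 and 105 CPM in WT livers, with a log2 fold change of -0.19 (SE 0.12, 95% interval -0.46 to 0.08, unadjusted p = 0.142). Like Idi1, Sqle, Lss and Cyp51, Srebf2 was highest in KO replicate 2 and lowest in KO replicate 3. Insig1, which is itself an SREBP target, stood at 64.8, 95.3 and 82.9 CPM in KO livers and at 81.8, 78.8 and 59.97 CPM in WT livers. Insig2, whose liver transcript is known to be induced by fasting and repressed by insulin, stood at 187, 304 and 222 CPM in KO livers and at 340, 231 and 267 CPM in WT livers. Insig2 was the more abundant of the pair in every library, with an Insig1 to Insig2 CPM ratio of 0.347, 0.313 and 0.374 in KO livers and 0.241, 0.341 and 0.225 in WT livers. That ratio overlapped between the genotypes, and the log2 fold changes were 0.14 (SE 0.17) for Insig1 and -0.23 (SE 0.21) for Insig2.

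Uptake and transfer were represented by Mylip and Stard4. Mylip, a ubiquitin ligase that marks lipoprotein receptors for degradation, stood at 29.6, 27.1 and 29.1 CPM in KO livers and at 26.8, 26.2 and 40.4 CPM in WT livers. Stard4, a carrier of cholesterol between membranes and an SREBP2 target, stood at 32.1, 36.8 and 29.1 CPM in KO livers and at 35.5, 35.7 and 24.8 CPM in WT livers. WT replicate 3 was at one end of each gene, highest for Mylip and lowest for Stard4, and the log2 fold changes were -0.12 (SE 0.17) and 0.03 (SE 0.16).

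On the LXR side, the receptor and the HDL pump varied less between libraries than the bile exporters, which varied most of the 29 genes. Nr1h3, which encodes LXR alpha, stood at 84.7, 80.4 and 65.3 CPM in KO livers and at 93.4, 80.8 and 100.1 CPM in WT livers. It had the smallest p of the 29 genes, a log2 fold change of -0.25 (SE 0.13, 95% interval -0.54 to 0.04, unadjusted p = 0.0817, edgeR adjusted p = 0.850), and KO replicate 1 lay above WT replicate 2. Abca1 stood at 720.3, 739.9 and 764 CPM in KO livers and at 691, 643 and 830.1 CPM in WT livers, with a log2 fold change of 0.04 (SE 0.14). The 3 KO values of Abca1 lay within the WT range. Soat2, which esterifies cholesterol for lipoproteins and is distinct from the thiolase gene Acat2, stood at 58.7, 23.6 and 57.9 CPM in KO livers and at 46.1, 58.2 and 51.2 CPM in WT livers. KO replicate 2 was far below the other 5 libraries, and the log2 fold change of Soat2 was -0.15 (SE 0.31).

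Abcg5 and Abcg8 form a heterodimer that exports sterols into bile and back into the gut lumen. Abcg5 (chromosome 17, 84658234 to 84683011, minus strand) stood at 67.3, 32.7 and 120.2 CPM in KO livers and at 40.0, 54.7 and 35.8 CPM in WT livers. Abcg8 (chromosome 17, 84676302 to 84700333, plus strand) stood at 90.8, 36.6 and 149 CPM in KO livers and at 59.6, 75.1 and 44.4 CPM in WT livers. KO replicates 3 and 1 were the highest 2 libraries and KO replicate 2 the lowest for both genes, so the KO values enclosed all WT values. The 6 libraries came in the same order for both, KO replicate 3, KO replicate 1, WT replicate 2, WT replicate 1, WT replicate 3 and KO replicate 2. The Abcg8 to Abcg5 ratio of CPM stayed between 1.12 and 1.49 while each gene varied by 3.68-fold and 4.08-fold. Their annotated exons overlap on opposite strands by 82 bases, and the sources used here give no strand setting for the counting.

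The log2 fold change was 0.75 (SE 0.41, 95% interval -0.18 to 1.69, unadjusted p = 0.101, edgeR adjusted p = 0.850) for Abcg5 and 0.63 (SE 0.44, 95% interval -0.38 to 1.63) for Abcg8. Both values depended strongly on single KO libraries. Without KO replicate 2 they were 1.11 (SE 0.26, unadjusted p = 0.00389) and 1.01 (SE 0.26, unadjusted p = 0.00591), both with an edgeR adjusted p of 0.839. Without KO replicate 3 they were 0.20 (SE 0.31) and 0.09 (SE 0.38). Of the 29 genes, 6 had an unadjusted p under 0.05 without KO replicate 2, namely Abcg5, Abcg8, Sqle, Hsd17b7, Fdps and Insig2, against 5.18% of all genes in that fit, and 0 passed the adjusted threshold. Without KO replicate 1 it was Scap alone (unadjusted p = 0.0403), against 5.11% of all genes, and without WT replicate 2 Nr1h3 alone (unadjusted p = 0.0357), against 10.7% of all genes.

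**Figure D4:**
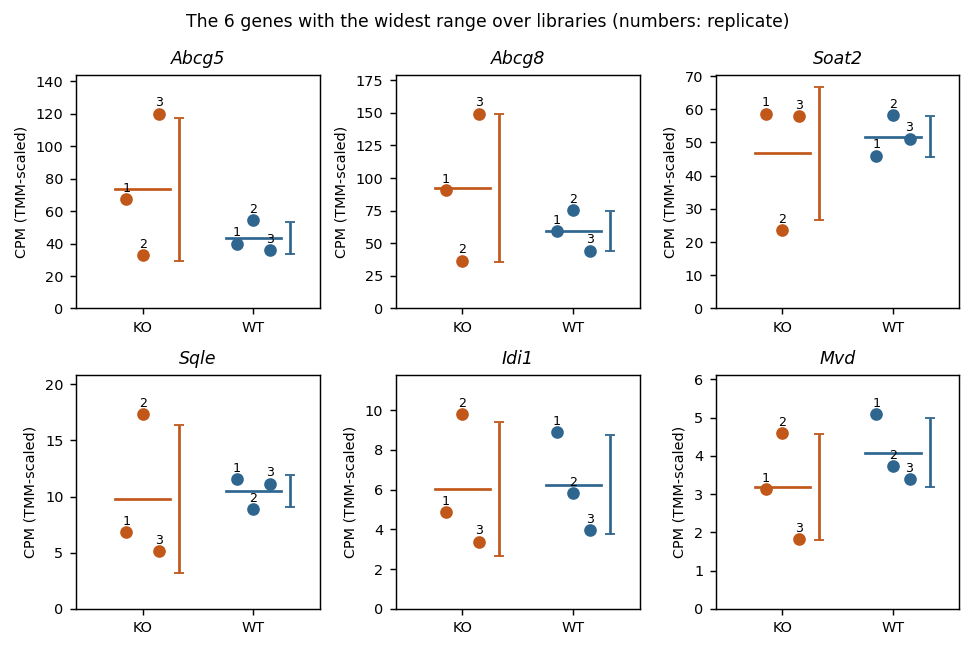
CPM by library of the 6 genes that varied over 2-fold between their highest and lowest library, with KO left of WT, the replicate number at each point, the mean as a line and the SD as a bar beside it (n = 3 each). KO replicate 2 is lowest for Abcg5, Abcg8 and Soat2 and highest for Sqle and Idi1.

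Synthesis and efflux genes lay on opposite sides of their means in some livers and not in others. The mean log2 deviation of the 5 LXR, efflux and esterification genes was 0.22, -0.52 and 0.47 in KO livers and -0.11, 0.06 and -0.12 in WT livers. Synthesis minus efflux was therefore -0.34, 0.80 and -0.78 on the log2 scale in KO livers and 0.39, -0.04 and -0.03 in WT livers. All 3 KO livers and WT replicate 1 had them on opposite sides, whereas in WT replicates 2 and 3 they lay on the same side. The SD of this difference was 0.81 in KO livers and 0.25 in WT livers, around means of -0.11 and 0.11 (n = 3 each). The efflux side of it rests on Abcg5, Abcg8 and Soat2, since Abca1 and Nr1h3 spanned 1.29-fold and 1.53-fold.

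Other states of the liver differed between the same libraries. Acute phase genes, which hepatocytes switch on in response to inflammatory cytokines, summed over 7 genes to 4225, 15695 and 3606 CPM in KO livers and to 8783, 3619 and 11703 CPM in WT livers. The 3 libraries with the highest sums, KO replicate 2, WT replicate 3 and WT replicate 1, were the 3 with the lowest Abcg5 and Abcg8. Clock genes differed as well, with Nr1d1 at 80.9, 8.57 and 73.4 CPM in KO livers and 92.7, 87.8 and 33.2 CPM in WT livers. Dbp, another gene that peaks by day, stood at 20.9997, 2.35 and 25.6 CPM in KO livers and 19.3, 14.996 and 4.69 CPM in WT livers. KO replicate 2 was lowest for both, followed by WT replicate 3. Per3 and Nr1d2 were lowest in KO replicate 2 as well. Other clock genes went the opposite way. Arntl and Per2 were highest in KO replicate 2, at 47.5 and 21.8 CPM, and Per1 was highest in WT replicate 3. The times of tissue collection were not analysed here, and the part of acute phase and clock states in the sterol pattern was not tested.

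**Figure D5:**
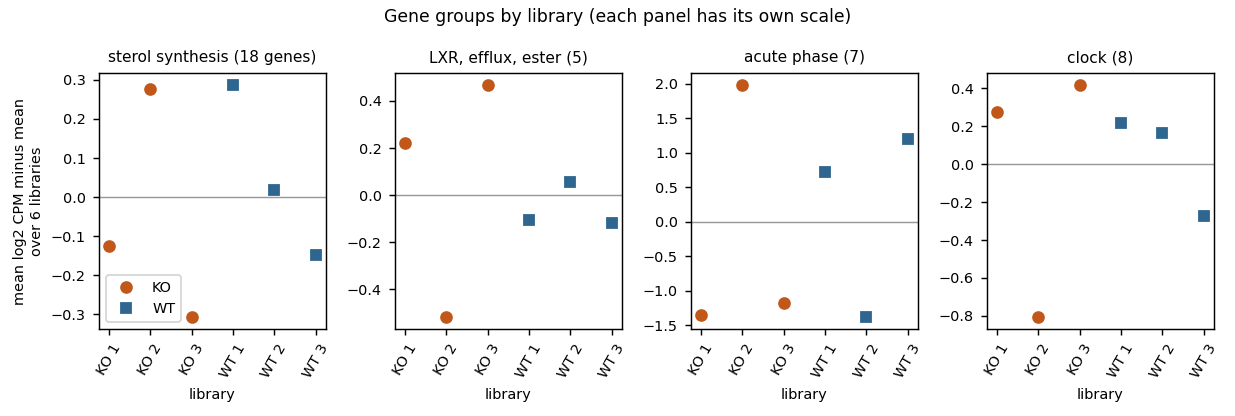
Mean log2 CPM of 4 gene groups in each library minus the mean over the 6 libraries, with KO libraries (circles) left of WT libraries (squares) and a separate scale for each panel. KO 2 is high for synthesis (0.28) and acute phase genes (1.98) and lowest for the efflux group (-0.52) and clock genes (-0.81). The clock mean pools genes that moved in opposite directions, with Arntl and Per2 highest in KO 2.

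Markers of other cells were set beside the sterol genes. Bile duct markers, 6 genes, summed to 408, 392 and 509 CPM in KO livers and to 262, 380.4 and 277 CPM in WT livers. Every KO sum thus lay above every WT sum. All 6 had log2 fold changes above 0, against 49% of all genes tested. Of the 6, 3 did not overlap between the genotypes, all higher in KO livers, against 11.1% of all genes. Their smallest edgeR adjusted p was 0.850. Resident Kupffer cell markers, 6 genes, summed to 551, 514 and 306 CPM in KO livers and to 599, 454 and 994 CPM in WT livers. Sinusoidal endothelial markers, 6 genes, were lowest in KO replicate 3 (328 CPM) and highest in WT replicate 3 (566 CPM), and lipid-associated macrophage markers ranged from 1115 to 1409 CPM in KO livers and from 1104 to 1323 CPM in WT livers. The 6 stellate cell markers summed to 1323, 1100.2 and 1408 CPM in KO livers and to 1071, 1458 and 1243 CPM in WT livers. WT replicate 3 was thus highest for Kupffer and endothelial markers and KO replicate 3 lowest for both, while no genotype stood apart in the sums of macrophage or stellate markers. All 6 Kupffer and all 6 endothelial markers had log2 fold changes below 0, where 49% of all genes tested lay above it. An edgeR unadjusted p under 0.05 was found for 2 Kupffer markers and 1 endothelial marker, against 5.19% of all genes. Without overlap were 0 and 1 of them, against 11.1% of all genes. The smallest edgeR adjusted p was 0.850 in both lists. The stellate sum is mostly Col1a1, with a mean of 724 CPM over the 6 libraries. Of the 6 stellate markers, 2 had log2 fold changes above 0 and 4 below it. They ran from -0.42 (SE 0.16) for Lrat to 0.23 (SE 0.21) for Col1a1, and all 6 overlapped between the genotypes. The part of these cell types in the sterol values was not tested. The adrenal cortex lies beside the liver and makes sterols, and of its 6 markers Cyp11b1 and Mc2r were at 0 in all 6 libraries, while the 6 summed to at most 3.56 CPM in KO livers and 2.49 CPM in WT livers.

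The wider pathway was read from 45 further genes of SREBP processing, LXR partners, sterol transport and accessory synthesis, of which 42 were tested. edgeR called 0 of the 42, with a median log2 fold change of -0.11. Of the 42, 10 lay above 0 and 32 below it (23.8% above, against 49% of all genes tested). An unadjusted p under 0.05 was found for 3 of them (7.14%, against 5.19% of all genes). Srebf1, whose product drives fatty acid synthesis and is an LXR target, stood at 327, 317 and 276 CPM in KO livers and at 182, 203 and 141 CPM in WT livers, a log2 fold change of 0.81 (SE 0.15, unadjusted p = 0.000715, edgeR adjusted p = 0.850). DESeq2 called it, with an adjusted p of 0.00467, and called none of the 29 genes, where it called 0.0236% of all genes with a count. Its KO and WT libraries did not overlap, unlike those of its relative Srebf2. Scd1, a desaturase that both SREBP1 and LXR induce, stood at 5583, 7442 and 6551 CPM in KO livers and at 5427, 4722 and 6496 CPM in WT livers, which overlap.

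Gramd1b, which encodes a carrier of cholesterol from the plasma membrane to the endoplasmic reticulum, stood at 46.4, 59.3 and 64.5 CPM in KO livers and at 36.1, 39.1 and 44.9 CPM in WT livers. Its log2 fold change was 0.50 (SE 0.14, unadjusted p = 0.00671), without overlap between the genotypes. Tmem97, a sterol-responsive membrane protein that binds NPC1, stood at 47.7, 51.6 and 42.8 CPM in KO livers and at 57.3, 54.3 and 58.6 CPM in WT livers, with a log2 fold change of -0.26 (SE 0.09, unadjusted p = 0.0236). Gramd1b was thus higher and Tmem97 lower in every KO liver than in any WT liver, and neither passed edgeR's adjusted threshold (adjusted p = 0.850 for both). The next smallest p belonged to Nceh1, which hydrolyses cholesterol esters (-0.22, SE 0.10), to Por, the reductase that feeds electrons to Cyp51 and other P450 enzymes (-0.49, SE 0.23), and to Rxra, the partner of LXR (-0.30, SE 0.15), all as log2 fold changes. Their KO and WT libraries overlapped.

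Fasting genes, by contrast, mostly lay lower in KO livers. Of 8 genes, 6 did not overlap between the genotypes, all lower in KO livers, against 11.1% of all genes without overlap. The list was drawn up with earlier results of these data known, so its counts and calls describe it and do not test it. An unadjusted p under 0.05 was found for 5, against 5.19% of all genes, and none passed edgeR's adjusted threshold (smallest adjusted p = 0.850). DESeq2 called 2 of the 8, against 0.0236% of all genes with a count. They were Angptl4 (log2 fold change -1.17, DESeq2 adjusted p = 0.000739) and Klf10 (-0.82, DESeq2 adjusted p = 0.00161). Pdk4, which blocks pyruvate oxidation in the fasted state, stood at 31.8, 20.7 and 23.1 CPM in KO livers and at 63.0, 45.8 and 135 CPM in WT livers. Fgf21 alone of the 8 had a log2 fold change above 0 (0.73, SE 0.45). It stood at 75.0, 41.4 and 31.8 CPM in KO livers and at 22.0, 50.6 and 16.5 CPM in WT livers, which overlap. SREBP targets of the sterol pathway and Insig2 are known to respond to feeding and fasting, and the part of feeding state in the sterol values was not tested.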

How the data were processed

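RNA of 6 whole-liver samples was enriched for polyadenylated transcripts and made into directional Illumina libraries, per the labels' protocols. The deposited values are raw read counts, as whole numbers for each Ensembl gene ID. Per the submitters' processing notes, the tools included DESeq2 1.30.0, featureCounts 1.6.3 and STAR 2.7.6a, with mm10 and GRCm38 as builds. The sources used here give no annotation release, strand setting or filter.

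Symbols, coordinates and exonic lengths came from GENCODE M21 on GRCm38, which matched 52135 of 55416 IDs (94.1%), and promoter windows from RefSeq on GRCm38.p6. Exons of 11 of the 29 genes overlap those of another gene, for example Fdft1 with Ctsb on the opposite strand, and Acat2 has a close copy, Acat3, so their reads can be shared. The fit used edgeR 4.0.16 (glmQLFit, glmQLFTest) in R 4.3.3 with TMM, filterByExpr (minimum count 10, minimum total 15) and a genotype term alone. P-values were adjusted by Benjamini-Hochberg over 17083 genes at a threshold of 0.05. Branch levels are means of log2 CPM with a prior count of 2. Intervals are 95% intervals. Alternatives were other scalings and filters, DESeq2 1.42.0, limma 3.58.1 (voom), a block for replicate number, a robust fit, and leaving out genes or single libraries. The procedure was tested on simulated counts. Counting error is the limit that depth sets, and the spread between animals adds to it.

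The 29 genes, the other lists and the tests were chosen with earlier results of these data known. All 29 genes are named, with full statistics for the 4 with the smallest p, since under 4 had an unadjusted p under 0.05. Of the other pathway genes the 6 with the smallest p and a mean CPM of at least 1 are named. Statistics for Sqle, Abcg8 and other members were chosen after their values were seen. The same holds for the genes Scd1, Nr1d1, Dbp, Pdk4, Fgf21, Angptl4, Klf10, Lrat, Col1a1, Ddx3y and Xist. It also holds for the clock genes Per1, Per2, Per3, Nr1d2 and Arntl and the hepatocyte genes Alb, Apoa1, Cps1 and Fgb.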

Additional observations from a re-analysis of the deposited data

How the results depend on the processing

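The count of called genes among the 29 was 0 under each of the 18 alternatives, among them an adjusted p under 0.1, which called 0 of all genes too. Over all genes, 3 were called without a count filter and 7 by DESeq2, and 0 to 2 with a library left out, the 2 without WT replicate 3. DESeq2 called 1 of the other pathway genes, Srebf1. Members at an unadjusted p under 0.05 numbered 1 of 29 without a count filter (Abcg5), against 4.69% of all genes in that fit. They numbered 0 to 6 with a library left out, with 6 without KO replicate 2, against 5.18% of all genes there. Scaling by library size alone put the median of the uptake and transfer genes at 0.035 and that of the mevalonate enzymes at 0.013, and shifted the median of all genes to 0.07. The median of the squalene and sterol enzymes was 0.079 without KO replicate 3 and 0.022 without WT replicate 1. That of the LXR, efflux and esterification genes was -0.038 without WT replicate 2. In each of these fits the sign of the branch median differed from the main fit. The log2 fold changes of Nr1h3, Hsd17b7, Abcg5, Scap and Ephb2 kept their sign under the 17 alternative fits run. Over all 29 genes, 41 of 493 alternative values changed sign, while 11 genes kept theirs throughout. Depth limits Mvd most, with 41 to 121 counts in a library.

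Same-numbered libraries did not deviate together (correlations of -0.03, -0.44 and -0.31 for numbers 1 to 3), so the numbers were not taken as pairs. With the replicate block, 0 genes and 0 of the 29 were called, and 537 of all genes had an unadjusted p under 0.05 against 886 without it.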
